A study of Mus musculus with 4 samples.

Results

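The E2F and DP transcription factors are described here as a family of 10 genes, E2f1 to E2f8, Tfdp1 and Tfdp2, among 23450 gene symbols listed for each library. The members were taken by name. They comprise 3 activators (E2f1, E2f2 and E2f3), 5 repressors (E2f4 to E2f8) and 2 dimerization partners (Tfdp1, which encodes DP1, and Tfdp2, which encodes DP2). All 10 passed the filter on low values, at least 1 CPM in at least 2 libraries (CPM are reads scaled to a common library total), as did 12569 genes in all. The filter acts on levels, so a member could have passed through 1 group alone. E2f8 needed the group where it was high to pass.

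Messenger RNA was measured by sequencing in hematopoietic stem cells sorted from mouse bone marrow, 2000 cells a library. Long-term stem cells (LT-HSC, 2 libraries) were sorted as CD48-, CD150+, CD34- and high for the tetraspanin CD9. Short-term stem cells (ST-HSC, 2 libraries) were sorted as CD48-, CD150+ and low for CD9, and their label gives no CD34 gate. Strain, sex and age of the mice, pooling and any treatment are not in the labels, and nothing there ties a library to an animal of its own, so p-values measure the spread between these libraries only, which may be technical. The single comparison asks how the 2 gates differ in their transcripts.

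E2F proteins bind the promoters of genes needed for DNA replication and cell division. E2f1 to E2f6 products do so as dimers with a DP protein, while the atypical E2f7 and E2f8 products bind DNA without one. In resting cells the retinoblastoma family (pocket proteins) holds activator E2Fs silent and, with E2F4 or E2F5, represses the same promoters. Cyclin-dependent kinases release this block as a cell enters the cycle, and E2F7 and E2F8, themselves made in cycling cells, later turn the program down. Most adult blood stem cells rest, and the long-term cells divide least often.

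Reads recovered from the deposited values numbered from 13063309 to 16143371 in LT-HSC and from 14823074 to 15030108 in ST-HSC. LT-HSC 1 had a read for 14548 genes, against 13275 to 13341 in the other libraries. All 8 listed HSC marker genes had reads in every library, but their levels were not alike in the 2 gates. For 6 of the 8 the LT-HSC pair was the higher one without overlap, and for 0 the lower one. Their median log2 fold change, LT-HSC minus ST-HSC, was 0.46. Mecom had the smallest p of the 8, at 691 and 844 CPM in LT-HSC, against 365 and 480 CPM in ST-HSC. Kit had the smallest change, at 317 and 362 CPM in LT-HSC, against 291 and 364 CPM in ST-HSC. No gene of the 12569 (0%) passed limma's test at an adjusted p under 0.05, the smallest adjusted p being 0.716. At an unadjusted p under 0.05, limma had 361 genes (2.87%) higher and 453 (3.6%) lower in LT-HSC, 814 in all, against 586 with limma-voom on the recovered reads, which also had 0 genes past the adjusted threshold. The LT-HSC pair exceeded the ST-HSC pair without overlap for 16.2% of genes, and lay under it without overlap for 17.5%.

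Against that background, no E2F or DP gene passed over all genes, and 1 of the 10 members, E2f8, had an unadjusted p under 0.05, on the lower side. Both LT-HSC libraries lay below both ST-HSC libraries for 3 of 10 members, E2f1, E2f8 and Tfdp1, and above both for 0 of 10. The median log2 fold change of the 10 members was -0.23, beside -0.01 for all tested genes. Fold changes are LT-HSC minus ST-HSC on the log2(CPM + 1) scale, which understates changes of low genes.

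**Figure D1:**
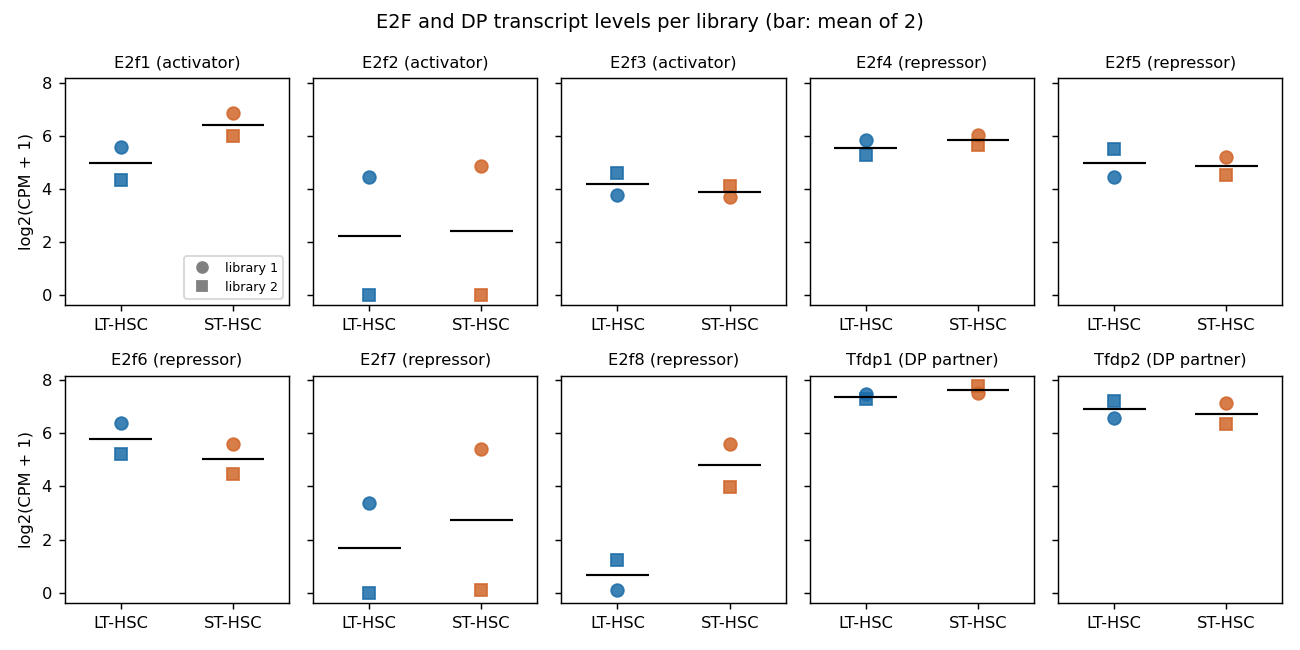
Level of each E2F and DP gene, as log2(CPM + 1) on the vertical axis, in the LT-HSC and ST-HSC libraries. Circles are libraries numbered 1, squares those numbered 2, and bars the mean of 2. E2f8 lies near the bottom in both LT-HSC libraries only, while E2f2 and E2f7 lie near the bottom in both libraries numbered 2.

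Promoters of the family were read for the E2F consensus, because several E2F genes are themselves E2F targets. RefSeq sequences of the GRCm38.p6 build, 250 bases before to 50 after a transcript start, were at hand for 8 of the 10 members in 12 windows. The words TTTCGCGC, TTTGGCGC, TTTCCCGC and TTTGCCGC were searched on both strands. At least 1 of them was found for 4 of the 8 members (E2f2, E2f3, E2f7 and Tfdp1), against 2.6% of all 27025 genes with a window. By window the count was 5 of 12, against 2.26% of 32851, but both Tfdp1 windows overlap and hold the same site. Of the 42 target genes with a window, 17 (40.5%) held a word. A word is a match of letters and not a shown binding site. The windows of the pair with at most 3 reads in each library numbered 2, E2f2 (chr4:136172024-136172323, plus strand) and E2f7 (chr10:110745189-110745488, plus strand), are shown with that of E2f8 (chr7:48881547-48881846, minus strand), the member with the lowest fold change. They are written 5′ to 3′, with the matched words in capitals.
E2f2: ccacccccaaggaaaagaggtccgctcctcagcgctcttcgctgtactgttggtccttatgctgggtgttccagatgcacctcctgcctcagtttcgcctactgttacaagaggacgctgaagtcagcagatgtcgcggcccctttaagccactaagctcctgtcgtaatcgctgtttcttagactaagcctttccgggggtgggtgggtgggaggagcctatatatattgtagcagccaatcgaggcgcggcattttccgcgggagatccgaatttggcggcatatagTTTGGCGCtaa
E2f7: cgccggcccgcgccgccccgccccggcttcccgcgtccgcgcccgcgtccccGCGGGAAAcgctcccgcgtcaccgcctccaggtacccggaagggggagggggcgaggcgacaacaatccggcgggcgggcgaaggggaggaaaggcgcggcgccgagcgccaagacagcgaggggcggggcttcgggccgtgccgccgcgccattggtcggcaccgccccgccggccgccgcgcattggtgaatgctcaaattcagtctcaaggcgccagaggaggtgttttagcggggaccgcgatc
E2f8: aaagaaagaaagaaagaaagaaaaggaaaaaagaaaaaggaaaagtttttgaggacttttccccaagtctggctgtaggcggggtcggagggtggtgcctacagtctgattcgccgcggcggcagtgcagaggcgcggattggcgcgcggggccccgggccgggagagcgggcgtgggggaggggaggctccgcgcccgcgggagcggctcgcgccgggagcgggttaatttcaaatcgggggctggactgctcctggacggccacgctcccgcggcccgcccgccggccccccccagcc
The word in E2f2, TTTGGCGC, begins at base 40 after the start, and that in E2f7, TTTCCCGC on the opposite strand, lies 198 bases before it. The E2f8 window holds none of the 4 words. It belongs to a start that lies inside the gene's annotated span. So do the window for E2f1 and both windows for Tfdp2 (62459 and 63002 bases inside), which also held none. The sequence before the outermost starts of E2f1, E2f8 and Tfdp2 was therefore not searched, though these genes count among the 8 members.

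E2f1 encodes the activator that drives entry into S phase. Its level was 47.1 CPM (LT-HSC 1) and 19.2 CPM (LT-HSC 2), against 115 CPM (ST-HSC 1) and 62.1 CPM (ST-HSC 2). The groups did not overlap, and between libraries of the same number the difference was -1.28 and -1.64 on the log2 scale. In bulk samples such as these, fewer cells of a type and less RNA per cell cannot be told apart. The log2 fold change was -1.46 ± 0.65 (SE; 95% interval -3.13 to 0.21), and it did not pass over all genes (limma adjusted p = 0.783). Within a library, the ratio of E2f1 CPM to E2f4 CPM, which gene length does not affect when libraries are compared, was 0.843 and 0.516 in LT-HSC and 1.81 and 1.26 in ST-HSC.

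E2f2 encodes an activator that acts beside E2F1 in blood cell division. It had 271 reads (20.7 CPM) in LT-HSC 1 and 0 reads in LT-HSC 2, against 416 reads (27.7 CPM) in ST-HSC 1 and 0 reads in ST-HSC 2. The spread within each gate was therefore far larger than the gap between the gates, and the 95% interval of the log2 fold change ran from -6.16 to 5.76. A count of 0 was read against a set floor of 3 reads, or 0.186 CPM for LT-HSC 2 and 0.202 CPM for ST-HSC 2. The exact Poisson 95% interval of such a count ran up to 3.69 reads (counting error only). E2f3, the remaining activator, stood at 12.7 and 23.4 CPM in LT-HSC, against 11.8 and 16.2 CPM in ST-HSC. Its ranges overlapped, with a log2 fold change of 0.30 ± 0.86 (SE).

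The repressors that work with pocket proteins, E2f4 and E2f5, showed no separation of the gates. E2f4 was at 55.9 and 37.3 CPM in LT-HSC, against 63.9 and 49.1 CPM in ST-HSC (log2 fold change -0.29 ± 0.48 SE; 95% interval -1.52 to 0.94). E2f5 was at 20.8 and 44.4 CPM in LT-HSC, against 35.8 and 21.7 CPM in ST-HSC (log2 fold change 0.12 ± 0.72 SE; 95% interval -1.72 to 1.96). These intervals leave room for a change of more than 1 log2 unit in E2f5 in either direction. E2f5 shares 26 exon bases with 1810022K09Rik on the other strand in GENCODE vM21. Since strand-specific counting is not stated, reads there cannot be assigned to 1 gene.

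E2f6 encodes a repressor that needs no pocket protein and works with a Polycomb complex (PRC1.6) at germline and cell cycle genes. Its level was 83.4 CPM (LT-HSC 1) and 35.9 CPM (LT-HSC 2), against 48.0 CPM (ST-HSC 1) and 21.0 CPM (ST-HSC 2). The groups overlapped, since LT-HSC 2 was below ST-HSC 1, although the difference between libraries of the same number was 0.78 and 0.75 on the log2 scale. The log2 fold change of 0.77 ± 0.71 (SE) was the highest of the 10 members and did not pass (limma adjusted p = 0.936). Of its 10 listed PRC1.6 partners, 1 lay above both ST-HSC libraries and 0 lay below both, no more than the 16.2% and 17.5% of all tested genes. Their median was 0.00 on the log2 scale (-0.01 for all tested genes), and between -0.14 and 0.40 with 1 library left out. The partner with the smallest p was L3mbtl2, a methyl-lysine binding subunit, at 164 and 203 CPM in LT-HSC, against 73.3 and 40.8 CPM in ST-HSC (limma adjusted p = 0.716). Mga, the scaffold of the complex, was at 261 and 753 CPM in LT-HSC, against 334 and 514 CPM in ST-HSC.

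E2f8 encodes an atypical repressor and held the lowest fold change of the family. It had 1 read (0.0765 CPM) in LT-HSC 1 and 22 reads (1.36 CPM) in LT-HSC 2, against 718 reads (47.7 CPM) in ST-HSC 1 and 219 reads (14.8 CPM) in ST-HSC 2. Every LT-HSC value was below every ST-HSC value. E2f8 passed the filter only with its ST-HSC libraries, since LT-HSC 1 was under 1 CPM. On the log2(CPM + 1) scale the gap between the gates was wider than the spread within either, while in CPM the ST-HSC libraries differed from each other by more than that gap. The counting interval of the single read in LT-HSC 1 was 0.0253 to 5.57 reads (exact Poisson, 95%, counting error only). The mean was 0.719 ± 0.908 CPM in LT-HSC, against 31.2 ± 23.3 CPM in ST-HSC (SD over 2 libraries), and the log2 fold change was -4.12 ± 1.18 (SE; 95% interval -7.15 to -1.09). Limma's p was 0.0174 unadjusted, which 2.29% of tested genes undercut, and 0.716 adjusted over all genes. The unadjusted p lay above 0.05 without LT-HSC 1 (0.0783), without ST-HSC 1 (0.103) and with limma-voom (0.107). In GENCODE vM21, 610 of 5443 exon bases of E2f8 also belong to Gm2788 on the other strand, which had 0 reads in both LT-HSC libraries and 115 and 0 reads in ST-HSC.

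E2f7, the other atypical repressor, overlapped between the gates. It had 123 reads (9.40 CPM) in LT-HSC 1 and 0 reads in LT-HSC 2, against 620 reads (41.2 CPM) in ST-HSC 1 and 1 read (0.0674 CPM) in ST-HSC 2. Its values split by library number, like those of E2f2, and not by gate. The log2 fold change was -1.06 ± 2.23 (SE), with a 95% interval of -6.81 to 4.69. Such a pattern was rare over all genes. With at least 5 CPM in both libraries numbered 1 and at most 3 reads in both numbered 2, there were 54 of 12569 genes (0.43%), among them these 2 members. The mirror pattern, reads in both libraries numbered 2 only, was found for 32 genes (0.255%) and no member. A gap of this size within at least 1 gate was seen for 970 genes (7.72%), and within both gates for 152 (1.21%). Of those 152, the genes outside these 2 patterns were read in library 1 of 1 gate and library 2 of the other. In GENCODE vM21, 86 exon bases of E2f7 also belong to 1700020G17Rik on the other strand. Why these 2 members were hardly read in the libraries numbered 2 was not tested.

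The DP partners had the smallest standard errors of the family. Tfdp1 was at 178 and 155 CPM in LT-HSC, against 184 and 217 CPM in ST-HSC. Both LT-HSC values lay below both ST-HSC values by a small margin, with a log2 fold change of -0.26 ± 0.25 (SE; 95% interval -0.90 to 0.37). Tfdp2 was at 94.9 and 149 CPM in LT-HSC, against 140 and 79.7 CPM in ST-HSC, with overlapping ranges and a log2 fold change of 0.17 ± 0.43 (SE; 95% interval -0.95 to 1.29).

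**Figure D2:**
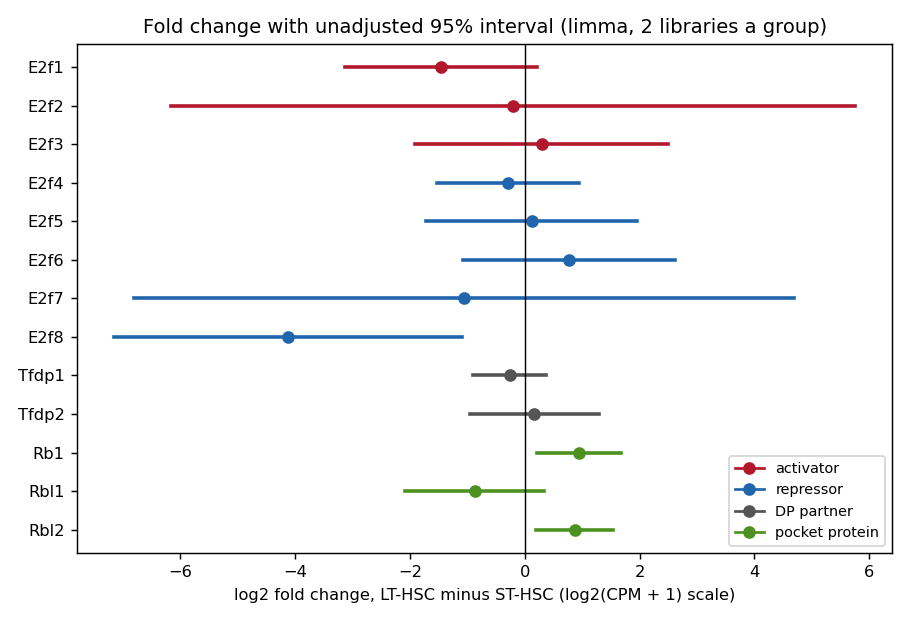
Log2 fold change of the 10 members and the 3 pocket protein genes, LT-HSC minus ST-HSC, on the horizontal axis. Points are limma estimates and lines their unadjusted 95% intervals, coloured by role. The interval of E2f8, -7.15 to -1.09, is the only one of the 10 members that does not reach 0, while those of E2f2 and E2f7 are the widest.

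To compare levels between members, CPM were divided by the length of the longest protein-coding GENCODE vM21 transcript of each gene in kilobases. This length may differ from the authors' gene models. On that per-length scale Tfdp1 was the most abundant member in every library, with 66.3 ± 6.59 CPM per kb in LT-HSC and 79.7 ± 9.24 in ST-HSC (SD, n = 2 each). In LT-HSC the order then ran E2f6 (24.7 ± 13.9), E2f4 (23.4 ± 6.58), E2f5 (18.3 ± 9.38), Tfdp2 (16.6 ± 5.22), E2f1 (12.0 ± 7.15) and E2f3 (3.54 ± 1.49), with E2f2 (2.19 ± 3.09), E2f7 (0.859 ± 1.22) and E2f8 (0.195 ± 0.246) at the bottom. In ST-HSC it ran E2f1 (32.2 ± 13.7), E2f4 (28.4 ± 5.23), E2f5 (16.2 ± 5.62), Tfdp2 (15.0 ± 5.83), E2f6 (14.3 ± 7.91) and E2f8 (8.47 ± 6.32), then E2f7 (3.77 ± 5.31), E2f2 (2.92 ± 4.13) and E2f3 (2.75 ± 0.603). Neighbours in either order differed by less than the larger of their SDs, except Tfdp1 from the next member in both gates, E2f1 from E2f3 in LT-HSC and E2f4 from E2f5 in ST-HSC. E2f1 ranked 6th of 10 in LT-HSC and 2nd of 10 in ST-HSC, and E2f8 10th in LT-HSC and 7th in ST-HSC.

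Activators were then set against repressors by the mean log2(CPM + 1) of each class within a library. The activators' mean was 4.60 and 2.98 in LT-HSC and 5.13 and 3.36 in ST-HSC, a difference of -0.45 between the gates. That of all 5 repressors was 4.03 and 3.44 in LT-HSC and 5.57 and 3.74 in ST-HSC, a difference of -0.92. Activators minus repressors was 0.57 and -0.46 in LT-HSC and -0.44 and -0.38 in ST-HSC, so 1 library, LT-HSC 1, stood apart and the gates overlapped. The absolute level of this measure depends on gene lengths, so only its differences between libraries can be read.

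The sign of the difference turned with the repressors counted. LT-HSC minus ST-HSC, activators minus repressors was 0.46 over all 5 repressors, but -0.65 against E2f4 to E2f6 and 2.14 against E2f7 and E2f8. Without LT-HSC 1 the value over all 5 repressors was -0.05, and without LT-HSC 2 it was 0.98. Against E2f4 to E2f6 the measure was -0.96 and -2.34 in LT-HSC and -0.48 and -1.51 in ST-HSC, which overlap. Against E2f7 and E2f8 it was 2.86 and 2.36 in LT-HSC and -0.37 and 1.32 in ST-HSC, which do not. That class rested mostly on E2f8 (log2 fold change -4.12, against -1.06 for E2f7), which had 1 and 22 reads in LT-HSC. With 0.25 or 4 added in place of 1, the E2f8 value was -5.21 or -2.74. E2f7 had 0 reads in LT-HSC 2 and 1 read in ST-HSC 2. The activator class rested in part on E2f2, unread in both libraries numbered 2. With the members that had at least 10 reads in every library (E2f1 and E2f3 against E2f4, E2f5 and E2f6, a choice made after the values were seen), the measure was -0.88 and -0.85 in LT-HSC and -0.34 and 0.17 in ST-HSC, a difference of -0.78. No test was made of these class means, since the members were chosen with results known.

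**Figure D3:**
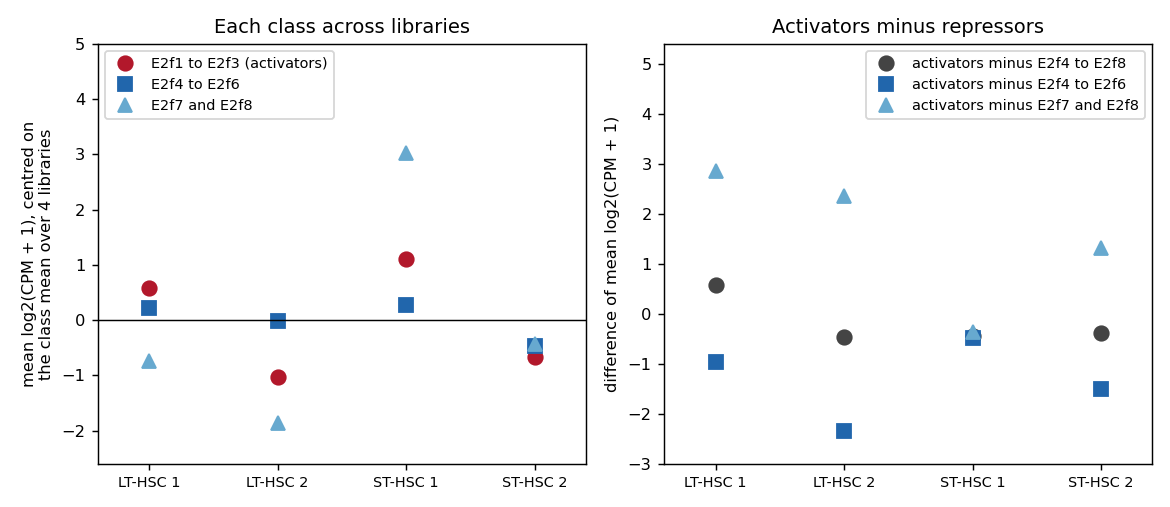
Left, the mean log2(CPM + 1) of each E2F class in each library, centred on the class mean over the 4 libraries. Right, activators minus repressors in each library, for 3 choices of repressors. E2f7 and E2f8 vary most across libraries, and activators minus E2f7 and E2f8 is the only one of the 3 measures in which both LT-HSC libraries, at 2.86 and 2.36, lie above both ST-HSC libraries.

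The pocket proteins bind E2F proteins and silence their targets, and their 3 genes differed in direction. Rb1 was at 192 and 206 CPM in LT-HSC, against 89.6 and 118 CPM in ST-HSC (log2 fold change 0.95 ± 0.29 SE). Rbl2, which encodes the p130 protein of resting cells, was at 191 and 202 CPM in LT-HSC, against 101 and 114 CPM in ST-HSC (log2 fold change 0.87 ± 0.26 SE). Rbl1, which encodes p107 and is itself an E2F target, was at 32.9 and 31.3 CPM in LT-HSC, against 62.2 and 57.0 CPM in ST-HSC (log2 fold change -0.87 ± 0.47 SE). None of the groups overlapped, which was also so for the 16.2% of all tested genes above both ST-HSC libraries and the 17.5% below both. None of the 3 genes passed over all genes (limma adjusted p = 0.716 for Rb1 and Rbl2 and 0.827 for Rbl1).

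The MuvB complex joins pocket proteins and E2F4 in resting cells and MYBL2 and FOXM1 in dividing ones. Of 9 listed genes, 3 lay below both ST-HSC libraries, with 0 above both (17.5% of all tested genes lay below both and 16.2% above both). Their median was -0.43, and between -0.75 and -0.19 with 1 library left out. Mybl2, the B-Myb gene, was at 0.459 and 0.248 CPM in LT-HSC, against 33.7 and 21.1 CPM in ST-HSC. Foxm1 was at 0.229 and 0 CPM in LT-HSC, against 38.5 and 5.86 CPM in ST-HSC. Both Mybl2 and Foxm1 reached 1 CPM in ST-HSC libraries only, and so passed the filter through that gate. Among the others, Lin37, a core subunit, was at 99.2 and 75.4 CPM in LT-HSC, against 101 and 75 CPM in ST-HSC (log2 fold change -0.01 ± 0.37 SE). Lin9 overlapped between the gates, and so did Dyrk1a, the kinase that assembles the repressive complex. The 3 genes below both were Mybl2, Foxm1 and the core subunit Rbbp4 (log2 fold change -0.17 ± 0.20, SE).

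Upstream of the pocket proteins, 3 of 8 genes of G1 cyclins and kinases lay below both ST-HSC libraries, with 0 above both, against 17.5% and 16.2% of all tested genes. Their median was -0.16, and between -0.43 and -0.04 with 1 library left out. The 3 were Ccne1 (1.22 and 0 CPM in LT-HSC, against 28.2 and 9.03 CPM in ST-HSC), Ccne2 (16.6 and 37.5 CPM in LT-HSC, against 59.4 and 90.3 CPM in ST-HSC) and Cdk6 (61.1 and 60.4 CPM in LT-HSC, against 137 and 144 CPM in ST-HSC). Ccne1 passed the filter only with its ST-HSC libraries. Cyclin E genes are E2F targets as well as upstream activators. Ccnd2, a D-type cyclin gene, had the smallest absolute difference of the list, with a log2 fold change of -0.10 ± 0.19 (SE). The median of the kinase inhibitor genes was -0.21, and between -0.51 and 0.05 with 1 library left out. Of 7 such genes, Cdkn2a and Cdkn2b had 0 reads in all libraries, and 1 of the 5 tested, Cdkn1c (p57), lay above both ST-HSC libraries (16.2% of all tested genes did), at 46.9 and 34.7 CPM in LT-HSC, against 13.4 and 12.0 CPM in ST-HSC.

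Genes known as E2F targets were taken in 4 lists of 49 listed genes in all, every one tested. Both LT-HSC libraries were below both ST-HSC libraries for 32 of the 49 (65.3%, against 17.5% of all tested genes) and above both for 0. At an unadjusted p under 0.05, 17 of 49 (34.7%) were lower, against 3.6% of all tested genes, and 0 were higher. The median log2 fold change was -0.99 (-0.01 for all tested genes), and -0.88 and -1.08 between libraries of the same number. No target passed over all genes (smallest limma adjusted p = 0.716). Some targets, among them Orc1 and Aurkb, reached 1 CPM in ST-HSC libraries only, and so passed the filter through that gate.

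The replication targets numbered 25, with a median of -0.71 and 16 below both ST-HSC libraries (17.5% of all tested genes were). Mcm10, which helps activate the loaded replicative helicase, was at 0.841 and 1.61 CPM in LT-HSC, against 66.8 and 32.5 CPM in ST-HSC. Orc1, of the origin recognition complex, was at 0.841 and 0.309 CPM in LT-HSC, against 36.3 and 23.2 CPM in ST-HSC. By contrast Mcm2, a helicase subunit, was at 105 and 87.1 CPM in LT-HSC, against 119 and 75.6 CPM in ST-HSC, with a log2 fold change of 0.02 ± 0.38 (SE). Rpa2, which coats single-stranded DNA, and Mcm7, another helicase subunit, had log2 fold changes of -1.82 ± 0.30 and -1.76 ± 0.47 (SE).

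The 6 nucleotide synthesis targets had a median of -1.35, with 3 below both ST-HSC libraries (17.5% of all tested genes were). Rrm2, the regulated subunit of ribonucleotide reductase, was at 3.59 and 65.6 CPM in LT-HSC, against 120 and 155 CPM in ST-HSC. Umps, of pyrimidine synthesis, was at 106 and 55.0 CPM in LT-HSC, against 305 and 286 CPM in ST-HSC. Tyms and Dut overlapped between the gates.

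The 10 targets of the cycle engine and checkpoints had the lowest median of the 4 lists, -1.65. Of these 10, 9 lay below both ST-HSC libraries (17.5% of all tested genes did). Aurkb, a mitotic kinase gene, was at 0.306 and 0.248 CPM in LT-HSC, against 27.3 and 22.9 CPM in ST-HSC, and Bub1, of the spindle checkpoint, at 0.153 and 2.35 CPM in LT-HSC, against 25.7 and 24.8 CPM in ST-HSC. Chek1, a checkpoint kinase gene, was at 83.2 and 70.7 CPM in LT-HSC, against 154 and 152 CPM in ST-HSC (log2 fold change -0.99 ± 0.30 SE). Of the 8 chromatin targets, with a median of -0.61, 4 lay below both ST-HSC libraries (17.5% of all tested genes did). These were the histone chaperone gene Nasp (-2.48 ± 0.34 SE), Uhrf1 (-1.63 ± 0.58 SE) and Hells (-1.58 ± 0.54 SE), both of DNA methylation, and the Polycomb methyltransferase gene Ezh2 (-0.73 ± 0.26 SE). Suz12, another Polycomb gene, was at -0.05 ± 0.50 (SE).

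**Figure D4:**
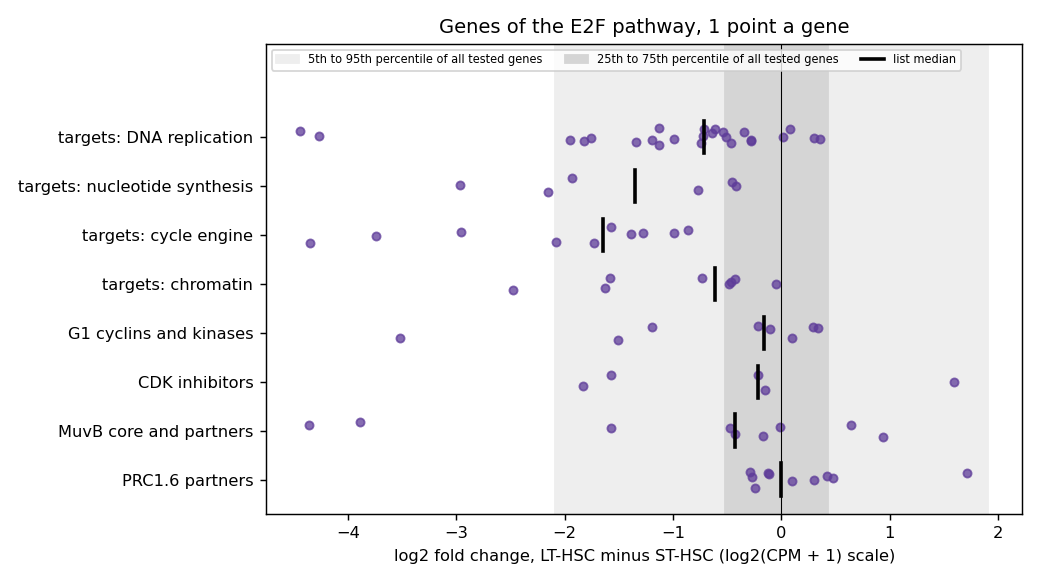
Log2 fold changes, LT-HSC minus ST-HSC, of the genes in 8 lists of the E2F pathway on the horizontal axis, 1 point a gene, with a bar at each list's median. Grey bands give the range of all tested genes, 25th to 75th percentile from -0.52 to 0.43 and 5th to 95th from -2.09 to 1.91. The 4 lists of targets have medians from -1.65 to -0.61, while CDK inhibitor genes and PRC1.6 partners have medians of -0.21 and 0.00, and both run from below to above 0 as single libraries are left out.

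Genes listed as markers of other lineages were read beside the low values of E2f1, E2f8 and the targets. In bulk libraries their reads cannot show which cells they came from. Counts of markers below or above both ST-HSC libraries stand against 17.5% and 16.2% of all tested genes, and the sums without the most abundant marker were added after the values were seen. The 11 listed erythroid genes summed to 663 and 492 CPM in LT-HSC, against 738 and 634 CPM in ST-HSC, with 4 of 10 tested below both ST-HSC libraries and 1 above. Klf1, an erythroid transcription factor gene, was at 0.306 and 0.124 CPM in LT-HSC, against 27.4 and 9.43 CPM in ST-HSC. Klf1 and Aqp1, both among the 4 below, passed the filter only with their ST-HSC libraries. Epor, the erythropoietin receptor gene, was the one above, at 50.8 and 26.6 CPM in LT-HSC, against 7.38 and 21.1 CPM in ST-HSC. Without Car2 the other 10 summed to 438 and 317 CPM in LT-HSC, against 557 and 447 CPM in ST-HSC.

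The 11 granulocyte and monocyte genes summed to 374 and 278 CPM in LT-HSC, against 521 and 323 CPM in ST-HSC, with 3 of 9 tested below both ST-HSC libraries. Most of that sum in LT-HSC was Prtn3, a granule protease gene, at 289 and 217 CPM in LT-HSC, against 226 and 216 CPM in ST-HSC. Without it the other 10 summed to 85.3 and 61.1 CPM in LT-HSC, against 295 and 107 CPM in ST-HSC. Of the 295 CPM in ST-HSC 1, Ngp gave 102 CPM and Camp 61.8 CPM, and both had 0 reads in ST-HSC 2. Mpo, the myeloperoxidase gene, was at 0 and 0.0619 CPM in LT-HSC, against 10 and 21.3 CPM in ST-HSC, and Ctsg had 0 reads throughout. Mpo and Cd14, both among the 3 below, passed the filter only with their ST-HSC libraries. The 6 megakaryocyte genes summed to 418 and 525 CPM in LT-HSC, against 340 and 201 CPM in ST-HSC, with 3 below both and 1 above. The direction of this sum rested on Vwf, the von Willebrand factor gene, at 304 and 380 CPM in LT-HSC, against 45.3 and 9.17 CPM in ST-HSC. Without it the other 5 summed to 113 and 145 CPM in LT-HSC, against 295 and 191 CPM in ST-HSC. Itga2b, the CD41 gene, was at 2.45 and 5.01 CPM in LT-HSC, against 152 and 105 CPM in ST-HSC.

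The 8 lymphocyte genes summed to 222 and 168 CPM in LT-HSC, against 209 and 202 CPM in ST-HSC, with 2 tested and 1 below both. Cd3e, Cd3d, Il7r and Dntt had 0 reads in all 4 libraries. Cd79b, of the B cell receptor, was at 209 and 130 CPM in LT-HSC, against 145 and 91.8 CPM in ST-HSC, and Nkg7, of cytotoxic lymphocytes, at 13.1 and 38.0 CPM in LT-HSC, against 64.3 and 97.2 CPM in ST-HSC. Without Cd79b the other 7 summed to 13.1 and 38.0 CPM in LT-HSC, against 64.6 and 110 CPM in ST-HSC. The part of cells of other lineages in the E2F values was not tested.

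Profiles most like those of 5 members were sought by the root mean square difference of log2(CPM + 1), centred on each gene's mean, over the 4 libraries. With 4 libraries this is a description only. Nearest to E2f8 were Fbxo45 (0.269 log2 units), the replication target Mcm10 (0.35) and Haao (0.361), and no gene came within 0.25. Nearest to E2f1 were AU019823 (0.0597), Supv3l1 (0.0913) and Tinf2 (0.0946), among 32 genes within 0.25. Nearest to E2f2 were Limch1 (0.172), Reep6 (0.19) and Fam38b (0.203), and to E2f7 Ctnnbip1 (0.187), Magee1 (0.277) and 2410133F24Rik (0.333). The flat profile of Tfdp1 had 2177 genes within 0.25, led by Gm6270, Gm10093 and Hdac1.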

How the data were processed

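RNA from 2000 sorted cells a library was amplified as SMARTer cDNA for Illumina sequencing, per the labels' protocols. TopHat (no version) and the mm9 build are named in the submitters' processing notes. The counter, annotation and strand setting were not given in the sources used here. The deposited values are log2 values per gene symbol, which the authors scaled to library totals. Their low steps stand for whole numbers of reads with 1 read added. Of values for at most 100 reads, 100% in each library came within 0.1 of a whole number. Raising unread genes to 1 read would give the same steps, in which case read genes have 1 read more than stated.

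CPM were computed by undoing the log and the added read. log2(CPM + 1) was filtered (1 CPM or more in 2 or more libraries) and tested across all genes with limma 3.58.1 in R 4.3.3 (trend, robust, statmod 1.5.0), with Benjamini-Hochberg adjustment and a threshold of 0.05. One read equals 0.0619 to 0.0765 CPM. Intervals and the floor of 3 reads are for counting error alone, as PCR copies are not separate molecules.

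The members and lists were chosen with earlier results of these data known, so the low cell cycle genes are no independent support. Of each list the text names up to 4 genes with the smallest p and the 1 with the smallest change. Rbbp4, Epor, Car2, Ngp and the genes named for having 0 reads were named after their values were seen. Some genes that this rule names are not reported here. Transcript lengths and exon overlaps come from GENCODE vM21 (GRCm38), a later build than the authors'.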

Additional observations from a re-analysis of the deposited data

How the results depend on the processing

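The number of genes past the adjusted threshold was 0 in every alternative (other scaling factors, filters, added values, leaving out each library, limma-voom, no robust option and a threshold of 0.1), with the smallest adjusted p between 0.552 and 1, so this count says nothing of stability. The replicate number as a block also gave 0 genes, and 878 at an unadjusted p under 0.05 against 814 without it. With a library left out that count ran from 394 to 1099. Deviations of libraries with the same number correlated at 0.0518 over genes. This value cannot tell whether such libraries share a day or an animal. The block left every member's log2 fold change as it was and gave E2f1 an unadjusted limma p of 0.0366, against 0.0748 without it. Of 130 member values under alternatives, 121 kept their direction and 9 reversed, each with a library left out. Those ranges were -2.62 to 2.22 for E2f2, -0.12 to 0.72 for E2f3, -0.41 to 0.65 for E2f5, -3.71 to 1.6 for E2f7 and -0.24 to 0.57 for Tfdp2. E2f1 (-2.08 to -0.83), E2f8 (-4.93 to -3.31), Tfdp1 (-0.38 to -0.14) and E2f6 (0.17 to 1.36) kept their direction with each library left out, and E2f4 ran from -0.57 to 0.00.

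Activators minus repressors (0.46) was 0.98 without LT-HSC 2 and -0.05 without LT-HSC 1, 0.93 with limma-voom, 0.71 with 0.25 added and 0.19 with 4 added. By the repressors counted it was -0.65 (E2f4 to E2f6) or 2.14 (E2f7 and E2f8), and -0.78 with members read at least 10 times in every library, which was chosen after seeing the data. With a library left out, the list medians ran from -1.18 to -0.83 for all targets, -1.06 to -0.52 for replication, -1.46 to -0.96 for nucleotide synthesis, -0.89 to -0.77 for chromatin targets, -0.43 to -0.04 for G1 cyclins and kinases and -2.28 to 0.04 for E2F turnover. Those of MuvB genes (-0.75 to -0.19), CDK inhibitors (-0.51 to 0.05), PRC1.6 partners (-0.14 to 0.40) and apoptosis genes (-0.20 to 0.45) moved as well. The cause was not tested. With 2 libraries a group, a fit without 1 of them assumes that the lone library varies like the others.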

Other observations

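Of 3 tested genes that end E2F activity by protein turnover, 0 lay above and 0 below both ST-HSC libraries, against 16.2% and 17.5% of all tested genes. Their median log2 fold change was -1.12, and between -2.28 and 0.04 with 1 library left out. Ccnf, whose product marks activator E2Fs for destruction, was at 38.2 and 35.2 CPM in LT-HSC, against 52.0 and 19.1 CPM in ST-HSC. Skp2, a ubiquitin ligase gene, was at 8.49 and 46.2 CPM in LT-HSC, against 34.0 and 59.4 CPM in ST-HSC, and Fzr1, an activator of the anaphase-promoting complex, at 12.8 and 61.9 CPM in LT-HSC, against 58.4 and 81.8 CPM in ST-HSC. LT-HSC 1 was the lowest library for both.

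Of 4 tested apoptosis genes that E2F1 can induce, 1 lay above and 1 below both ST-HSC libraries, a number near the 16.2% and 17.5% of all tested genes. Their median log2 fold change was 0.13, and between -0.20 and 0.45 with 1 library left out. Bbc3, which encodes PUMA, was the one above (4.97 and 16.2 CPM in LT-HSC, against 2.33 and 0 CPM in ST-HSC), with a limma adjusted p of 0.815. Bbc3 passed the filter only with its LT-HSC libraries. Apaf1, which encodes the apoptosome scaffold, overlapped between the gates. Trp73 had 0 reads in all 4 libraries. Of the 5 germline genes that E2F6 keeps silent in somatic cells, Slc25a31 had 0 reads throughout. Smc1b, a meiotic cohesin gene, was at 24.9 and 17.7 CPM in LT-HSC, against 18.9 and 22.6 CPM in ST-HSC, and Stag3, another, at 0.382 and 1.61 CPM in LT-HSC, against 38.9 and 0 CPM in ST-HSC.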
